A study of Mus musculus with 5 samples.

Results

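The genes described here make sterols and fatty acids. They were taken from a list of 32 genes of the mevalonate and cholesterol pathway, its regulators, fatty acid synthesis, and fatty acid desaturation and elongation, and a gene counted as measured where a probe set of the array named it alone. By that rule 31 of the 32 were measured, all but Acat2, which is not analysed here, and all 31 passed the filter on dim probe sets, so that they are 31 of the 12082 genes tested. They were represented by 75 probe sets, of which 67 passed.

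The arrays compare germinal centre B cells, the fast-dividing cells in which antibody genes are mutated and selected after immunization. REL samples (n = 2) were eGFP+ cells of relfl/flCg1-Cre mice, where Cre acts on floxed Rel. Rel encodes c-Rel, a member of the NF-kB family of transcription factors. WT samples (n = 3) were eGFP− cells of Cg1-Cre littermates, so that both groups carried the Cre. All mice were C57BL/6, 12 weeks of age and at day 7 after immunization with SRBC, sheep red blood cells, and cells were sorted from spleen. Cg1-Cre is driven from the immunoglobulin gamma 1 constant region locus, which B cells switch on after activation, so deletion is limited to cells that have used that locus. Whether every array comes from its own animal is not stated in the labels. The p-values therefore cover only sample-to-sample spread, part of which may be technical.

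Sterols are built from acetyl-CoA by way of mevalonate, isoprenoid units, squalene and lanosterol. Fatty acids are built from acetyl-CoA by way of malonyl-CoA, and are then lengthened by ELOVL elongases and given double bonds by SCD and FADS desaturases. Both pathways are switched on by the SREBP transcription factors, which SCAP carries to the Golgi for cleavage when membrane sterol is low and which INSIG proteins hold back when it is high. Dividing lymphocytes need both kinds of lipid for new membrane.

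Every array had a 2% trimmed mean MAS5 signal of 500, and correlations between arrays over all probe sets were 0.928 between the REL arrays, 0.931 to 0.942 between groups and 0.947 to 0.955 within WT. Rel had signals of 18.55 and 85.16 in REL and 492.3, 133.8 and 205.8 in WT, and the REL values were the lowest. Its difference was −2.12 on the log2 scale (SE 0.73, limma adjusted p = 0.46), and the labels do not give the deleted exons. Of 14 germinal centre B cell markers 12 were measured, none passed the threshold used below, and their summed signal was 66821 to 77356 in REL and 66896 to 83012 in WT. Of these, Cd79a was between 7971 and 9040 in REL and 7435 and 8508 in WT, and Bcl6 between 8731 and 9384 in REL and 7619 and 10515 in WT. Pax5 was dim in both groups, at 78.91 and 72.77 in REL and 71.39 to 209.4 in WT. Rgs13 had 4514 and 3321 in REL and 4960 to 6058 in WT, with both REL arrays lowest at −0.54 (limma adjusted p = 0.483). Of 19 macrophage markers 14 were measured and 13 had a difference above 0. The filter used the mean over all arrays, and 6 of the 14 had a WT mean below it and so passed through their REL signals, which fixes their direction. One of them passed the threshold, Vcam1, at 4.89 on the log2 scale (limma adjusted p = 0.0389), and the list had summed signals of 8803 and 7297 in REL and 2022, 2444 and 1349 in WT. The macrophage genes C1qb (530.8 and 785.9 in REL, 3.912 to 27.0 in WT), Csf1r (565.4 and 528.1 in REL, 8.182 to 33.13 in WT) and Vcam1 (671.4 and 389.8 in REL, 0.833 to 2.461 in WT) had WT signals no higher than 33.13 on the probe sets used. The other probe sets that passed were at 1.12 and 0.09 for Vcam1, 3.46 and 0.52 for Csf1r and 4.07 for C1qb. Vcam1, C1qb and Csf1r were all among the 6, so their direction was fixed by the filter. Adgre1, the macrophage marker below 0, had 119.9 and 116.3 in REL and 154.0 to 435.2 in WT. Its REL arrays were the lowest, at −0.83 (limma adjusted p = 0.789). Cd68, another macrophage marker, had 242.1 and 833.0 in REL and 296.7 to 460.5 in WT, overlapping at 0.37. The part of the macrophage markers in the differences below was not tested. Summed signals of the other lists were 5322 to 6485 in REL and 4774 to 5360 in WT for T cells (3 of 8 measured), 17278 to 19114 in REL and 17807 to 20836 in WT for plasma cells (5 of 6), and 3675 to 4551 in REL and 4444 to 5053 in WT for naive B cells (4 of 7). They were 62.09 to 337.8 in REL and 80.34 to 1122 in WT for neutrophils (3 of 8), and 39.56 to 96.41 in REL and 129.9 to 555.8 in WT for erythroid cells (2 of 6). Most of the T cell sum was Cd2 (5725 and 5088 in REL, 4396 to 5233 in WT), so it says little of the other T cell markers. Cd8a had 130.7 and 65.38 in REL and 70.85 to 112.9 in WT, at −0.04. Cd247 had 629.7 and 168.2 in REL and 16.26 to 306.8 in WT, at 1.715 (limma adjusted p = 0.694). For Cd8a and Cd247 the groups overlapped. Jchain was most of the plasma cell sum (11600 and 12528 in REL, 11379 to 13129 in WT). Within these lists Sdc1, a plasma cell marker, had 42.6 and 42.44 in REL and 124.7 to 455.3 in WT (−1.96, limma adjusted p = 0.458). The other plasma cell genes did not share this fall. Xbp1 had both REL arrays highest (2469 and 2805 in REL, 1708 to 1985 in WT) at 0.49. Prdm1 was at 0.43, Jchain at −0.03 and Irf4 at −0.43, with the groups overlapping. Cr2, from the naive B cell list, had 1896 and 1411 in REL and 2440 to 3216 in WT (−0.80, limma adjusted p = 0.425). In both Sdc1 and Cr2 the REL arrays were the lowest. The other 3 measured naive B cell genes were above 0, and the list median was 0.40. Fcer2a was at 0.27, Ccr7 at 0.77 and Klf2 at 0.53, with the groups overlapping. In such samples fewer cells of a type and less RNA per cell cannot be told apart.

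Promoters of 6 members are shown because they belong to members with large differences or carry the letters by which the pathway is known to be switched on. Sequences are the 250 bases before the start site, from RefSeq on build GRCm38.p6, written 5′ to 3′ on the strand of the gene. Of the 32 members 25 had an entry. In the first pair, which belong to the fatty acid desaturase gene Fads2 and the mevalonate kinase gene Mvk, capitals mark a match to the kB consensus, the motif of NF-kB factors. In the second pair, from the SREBP-2 gene Srebf2 and the HMG-CoA synthase gene Hmgcs1, they mark TCACNCCA, letters found in sterol response elements. In the third pair, from the lanosterol demethylase gene Cyp51 and the isomerase gene Idi1, they mark CCAAT or its reverse complement, the box of NF-Y, a factor that works beside SREBP.
Fads2 (chr19:10101504-10101753, minus strand): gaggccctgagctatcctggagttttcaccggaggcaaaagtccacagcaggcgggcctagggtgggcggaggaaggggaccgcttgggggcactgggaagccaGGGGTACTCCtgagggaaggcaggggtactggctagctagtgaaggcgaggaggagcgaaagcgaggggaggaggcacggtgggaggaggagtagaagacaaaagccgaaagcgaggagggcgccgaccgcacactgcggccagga
Mvk (chr5:114444019-114444268, plus strand): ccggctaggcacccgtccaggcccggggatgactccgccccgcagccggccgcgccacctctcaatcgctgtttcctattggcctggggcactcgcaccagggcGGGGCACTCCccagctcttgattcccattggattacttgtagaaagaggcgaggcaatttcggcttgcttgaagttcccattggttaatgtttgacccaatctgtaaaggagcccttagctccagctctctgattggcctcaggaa
Srebf2 (chr15:82147019-82147268, plus strand): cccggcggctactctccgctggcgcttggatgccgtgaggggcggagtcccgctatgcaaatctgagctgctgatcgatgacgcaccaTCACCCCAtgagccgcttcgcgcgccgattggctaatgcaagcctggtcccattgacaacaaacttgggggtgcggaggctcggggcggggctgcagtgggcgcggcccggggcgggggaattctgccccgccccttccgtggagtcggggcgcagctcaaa
Hmgcs1 (chr13:119690101-119690350, plus strand): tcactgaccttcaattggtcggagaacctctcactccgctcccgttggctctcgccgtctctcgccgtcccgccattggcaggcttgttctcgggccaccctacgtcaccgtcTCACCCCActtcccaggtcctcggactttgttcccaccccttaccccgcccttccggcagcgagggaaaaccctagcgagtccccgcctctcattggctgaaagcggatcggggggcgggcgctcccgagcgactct
Cyp51 (chr5:4104698-4104947, minus strand): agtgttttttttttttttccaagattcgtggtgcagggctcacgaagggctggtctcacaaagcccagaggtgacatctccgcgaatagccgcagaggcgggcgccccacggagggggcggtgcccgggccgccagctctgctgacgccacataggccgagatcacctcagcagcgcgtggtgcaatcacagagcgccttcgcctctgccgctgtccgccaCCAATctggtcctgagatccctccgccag
Idi1 (chr13:8885356-8885605, plus strand): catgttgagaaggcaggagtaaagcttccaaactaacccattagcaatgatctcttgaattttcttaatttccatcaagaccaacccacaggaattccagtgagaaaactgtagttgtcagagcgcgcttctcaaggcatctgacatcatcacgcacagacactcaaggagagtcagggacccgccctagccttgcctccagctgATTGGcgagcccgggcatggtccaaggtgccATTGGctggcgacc

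Motifs were searched on both strands over these 250 bases in 32851 mouse promoters, and a TCACNCCA match can overlap a CCAAT match by its last letters. CCAAT was present in 33.8% of all promoters and in at least 1 promoter of 19 of the 25 members. TCACNCCA was present in 3.67% of all promoters and in 3 members, Hmgcs1, Msmo1 and Srebf2. The kB consensus was present in 7.25% of all promoters and in 5 members, Fads2, Insig2, Mvk, Pmvk and Srebf1. Some members have several promoter entries, which raises their chance of a match. Counted by entry, as the shares of all promoters are, CCAAT was in 20 of the 34 member entries, TCACNCCA in 3 and the kB consensus in 5. A match is a description of letters and not a site of binding.

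The question of the comparison was how the loss of c-Rel in germinal centre B cells bears on the expression of these genes. None of the 31 members passed the threshold (limma, adjusted p under 0.05 over all genes), where 0.00828% of all genes did, a single gene, Vcam1. At an unadjusted p under 0.05 there were 2 members lower, Fads2 and Cyp51, and 0 higher, where 4.99% of all genes were lower, 3.24% higher and 8.24% either way by the same rule. Those 2 are 6.45% of the members. In 6 members both REL arrays were below all WT arrays, against 14.3% of all genes, and in 5 above them, against 9.53%. These are 19.4% and 16.1% of the members. Of the 31 members 22 had a difference below 0, which is 71.0%, beside 56.8% of all genes, and with each array centred on its median it was 16 of 31, or 51.6%, beside 40.6% of all genes. Centring shifted all genes alike. The median of the members was −0.21 beside −0.07 for all genes.

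**Figure D1:**
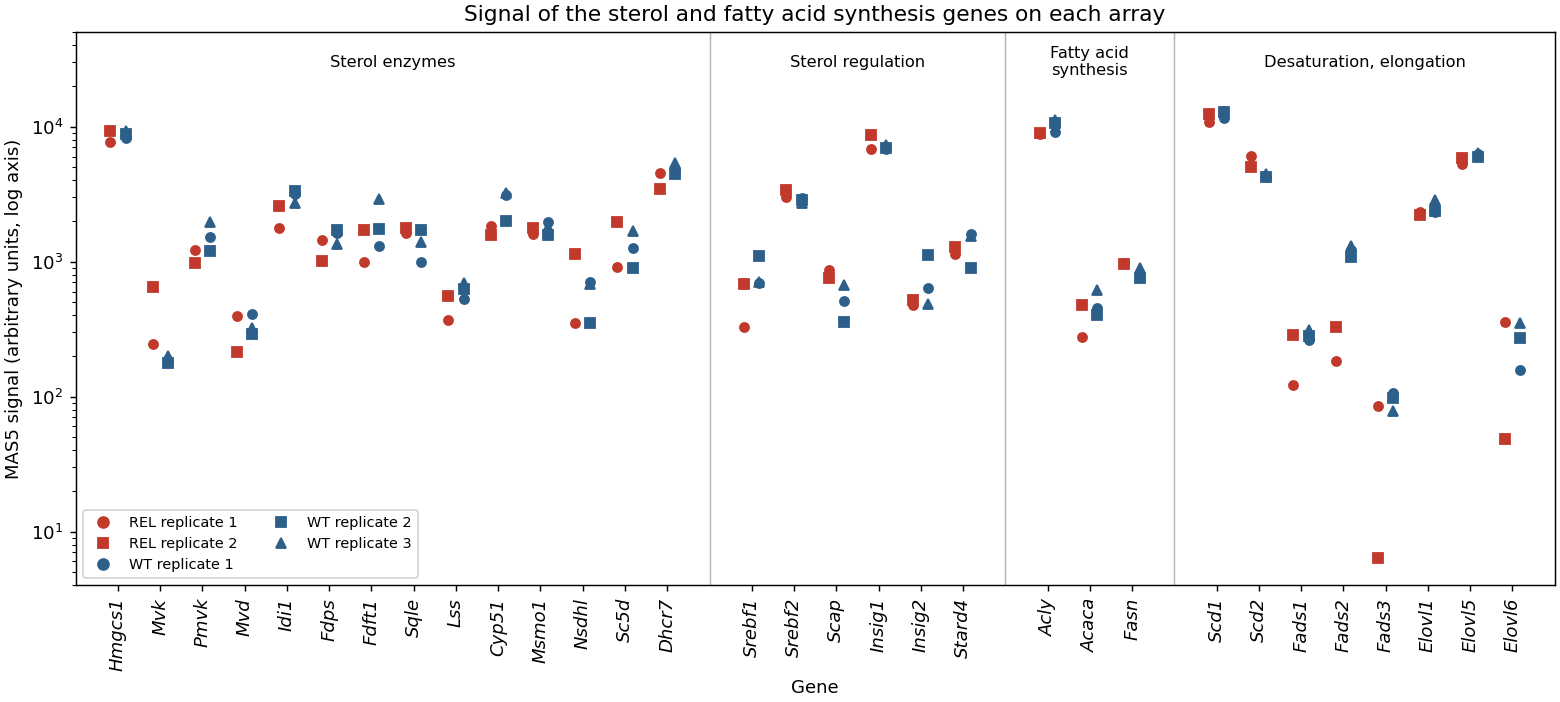
MAS5 signal (log axis, arbitrary units) of each measured gene on the 2 REL arrays (red, left of each pair) and the 3 WT arrays (blue), grouped by role. Fads2 stands apart, with 182.3 and 326.5 in REL and 1076 to 1294 in WT, while for most genes the points of the groups overlap.

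The first steps of the sterol arm condense acetyl units into mevalonate and turn it into isoprenoids. Hmgcs1, which makes HMG-CoA, had signals of 7655 and 9306 in REL and 8166, 8765 and 9281 in WT, and the ranges overlapped at −0.05. Its 5 probe sets were all below 0, and in 2 of them both REL arrays were the lowest. One of these had 4477 and 4585 in REL, against 5326, 5173 and 5119 in WT, at −0.20. The second had 5331 and 5707 in REL, against 6032, 6106 and 6041 in WT, at −0.14. Mvk, which phosphorylates mevalonate, had 243.7 and 651.7 in REL and 184.4, 176.6 and 201.2 in WT. Both REL arrays of Mvk were the highest. Its difference on the log2(signal + 16) scale was 1.04 (SE 0.57, limma adjusted p = 0.697) and 0.35 without REL replicate 2, and its other probe set was at −0.10. Pmvk, the next kinase, had 1212 and 981.7 in REL and 1522, 1207 and 1957 in WT. Mvd, which decarboxylates the product, had 396.4 and 212.4 in REL and 408.5, 291.6 and 323.1 in WT. For Pmvk and Mvd the groups overlapped, with differences of −0.48 and −0.21. Idi1, which isomerizes the isoprenoid unit, had 1778 and 2560 in REL and 3147, 3326 and 2727 in WT. Both REL arrays of Idi1 were the lowest, at −0.52 (SE 0.24, limma adjusted p = 0.616), and its second probe set also had both REL arrays below every WT array (2162 and 2337 in REL, 2869, 2375 and 2975 in WT). Without REL replicate 1 the difference of Idi1 was −0.25. Fdps, which joins the units into farnesyl diphosphate, had 1456 and 1005 in REL and 1629, 1703 and 1342 in WT, overlapping at −0.35, which was −0.09 without REL replicate 2.

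The later sterol steps make squalene and fold and trim it into cholesterol. Fdft1, squalene synthase, had 994.4 and 1711 in REL and 1294, 1745 and 2910 in WT, and its second probe set lay the other way (−0.52 and 0.21). Sqle, the oxygenase that follows, had 1639 and 1765 in REL and 987.7, 1710 and 1390 in WT, at 0.35. Lss, which closes the sterol rings, had 368.8 and 557.7 in REL and 529.9, 621.0 and 699.6 in WT, at −0.42, with all 3 of its probe sets below 0. These 3 genes overlapped between groups.

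Cyp51, which removes a methyl group from lanosterol, had 1847 and 1585 in REL and 3088, 1993 and 3227 in WT, with both REL arrays below every WT array. Its difference was −0.66 (SE 0.27, 95% interval −1.26 to −0.06), the lowest of the sterol enzymes, with an unadjusted p of 0.035 and a limma adjusted p of 0.559. A second Cyp51 probe set had 1110 and 575.5 in REL and 1413, 2351 and 1598 in WT, again with no overlap, at −1.11. The third and dimmest, with 70.33 and 384.4 in REL and 79.06, 127.7 and 160.7 in WT, was at 0.47. Msmo1, a methyl sterol oxidase of the pathway, had 1592 and 1783 in REL and 1959, 1566 and 1791 in WT, at −0.07. The dimmer Msmo1 probe set had both REL arrays lowest, with 372.9 and 327.2 in REL and 725.5, 533.7 and 787.1 in WT, at −0.92.

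Nsdhl, a sterol dehydrogenase, had 353.5 and 1145 in REL and 711.3, 352.5 and 686.6 in WT, and REL replicate 1 was level with the lowest WT array while replicate 2 was above all of them. Sc5d, the lathosterol desaturase, had 907.0 and 1955 in REL and 1253, 900.1 and 1692 in WT. The differences of Nsdhl and Sc5d, 0.19 and 0.10, were −0.63 and −0.45 without REL replicate 2 and 1.02 and 0.65 without REL replicate 1. Dhcr7, the last reductase of the pathway, had 4498 and 3432 in REL and 4772, 4458 and 5403 in WT, overlapping at −0.31. Over the 14 measured sterol enzymes 10 were below 0 and 4 above (71.4% below, beside 56.8% of all genes). With median centring, where 40.6% of all genes were below 0, 8 of the enzymes were below and 6 above (57.1% below). Their median was −0.26, and Cyp51 was the 1 with an unadjusted p under 0.05.

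The regulators did not lie to one side. Srebf1, whose product SREBP-1 mainly drives fatty acid genes, had 327.1 and 677.3 in REL and 693.4, 1095 and 708.8 in WT. Both REL arrays of Srebf1 were the lowest, replicate 2 narrowly, at −0.77 (SE 0.44, limma adjusted p = 0.708), and without REL replicate 1 the difference was −0.26. Srebf2, whose product SREBP-2 mainly drives sterol genes, had 3027 and 3375 in REL and 2965, 2874 and 2700 in WT. In both probe sets of Srebf2 the REL arrays were the highest, the second with 2721 and 2585 in REL and 2156, 1860 and 2012 in WT. The differences of these Srebf2 probe sets were 0.17 (SE 0.20, limma adjusted p = 0.885) and 0.40. Scap, the SREBP escort, had 871.5 and 753.9 in REL and 511.9, 356.6 and 675.2 in WT, with both REL arrays highest at 0.68 (SE 0.42, limma adjusted p = 0.73).

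Insig1, the sterol-induced retention protein, had 6853 and 8611 in REL and 6863, 6982 and 7351 in WT, and the REL arrays were the lowest and the highest of the 5. Insig2, its homologue, had 473.0 and 519.5 in REL and 633.4, 1113 and 483.6 in WT, at −0.48, and its 3 probe sets were all below 0. Stard4, a carrier of cholesterol between membranes, had 1135 and 1290 in REL and 1588, 900.7 and 1544 in WT. The REL arrays of Stard4 lay inside the WT range. Of the 6 genes 3 were above 0 and 3 below (50.0% below, beside 56.8% of all genes), and their median was 0.01. With median centring 4 were above and 2 below (33.3% below, beside 40.6% of all genes).

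Of the 3 genes that make palmitate, Acly, which supplies cytosolic acetyl-CoA from citrate, had 8842 and 8928 in REL and 9177, 10578 and 11126 in WT. Both REL arrays of Acly were the lowest, at −0.21 (SE 0.14, limma adjusted p = 0.752), and 3 of its 4 probe sets were below 0, over a range of −1.68 to 0.68. Acaca, acetyl-CoA carboxylase 1, had 276.6 and 475.9 in REL and 451.8, 404.8 and 616.1 in WT, at −0.40, which was −0.02 without REL replicate 1. A dim second Acaca probe set was at 1.21, so that the mean of both was at 0.41. Fasn, the fatty acid synthase, had 975.5 and 963.2 in REL and 770.5, 760.8 and 890.3 in WT, with both REL arrays highest at 0.26 (SE 0.32, limma adjusted p = 0.895).

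The widest gap between the groups was in Fads2, the desaturase that places the first double bond in the making of long polyunsaturated fatty acids. Its brightest probe set had 182.3 and 326.5 in REL and 1227, 1076 and 1294 in WT. The WT arrays lay within a narrow band and both REL arrays far below it, at −2.22 (SE 0.40, 95% interval −3.12 to −1.31), which is a REL over WT ratio of 0.215. The unadjusted p was 2.82e-04 and the limma adjusted p 0.216, which is not past the threshold. With each array left out in turn the difference stayed between −2.61 and −1.82, and the adjusted p between 0.101 and 0.614.

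The other probe sets of Fads2 gave smaller differences. One had 259.1 and 147.4 in REL and 184.5, 307.8 and 319.0 in WT, at −0.40. The other had 85.31 and 22.27 in REL and 64.42, 83.65 and 154.6 in WT, at −0.83. All 3 pointed down, in these 2 the groups overlapped, and the mean over the probe sets gave −1.15 (limma adjusted p = 0.563). Why the probe sets differ was not tested.

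Fads1, the desaturase that acts after FADS2 and one elongation, had 122.6 and 287.9 in REL and 261.1, 280.1 and 310.3 in WT, and replicate 2 of REL lay inside the WT range. Its difference was −0.54 (SE 0.56, limma adjusted p = 0.862), and without REL replicate 1 it was 0.02. A second Fads1 probe set had 67.86 and 98.04 in REL and 383.4, 200.7 and 212.7 in WT, with both REL arrays below every WT array at −1.47. Fads3, a sphingoid base desaturase, had 85.81 and 6.357 in REL and 106.8, 98.19 and 78.61 in WT. Its difference was −1.20 (SE 0.68) with both REL arrays and −0.11 without REL replicate 2. Fads3, Fads2 and Fads1 are consecutive protein-coding genes on chromosome 19. Next to them, Rab3il1 on the side of Fads3 was at 0.57 and Fen1 on the side of Fads1 at −0.20.

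**Figure D2:**
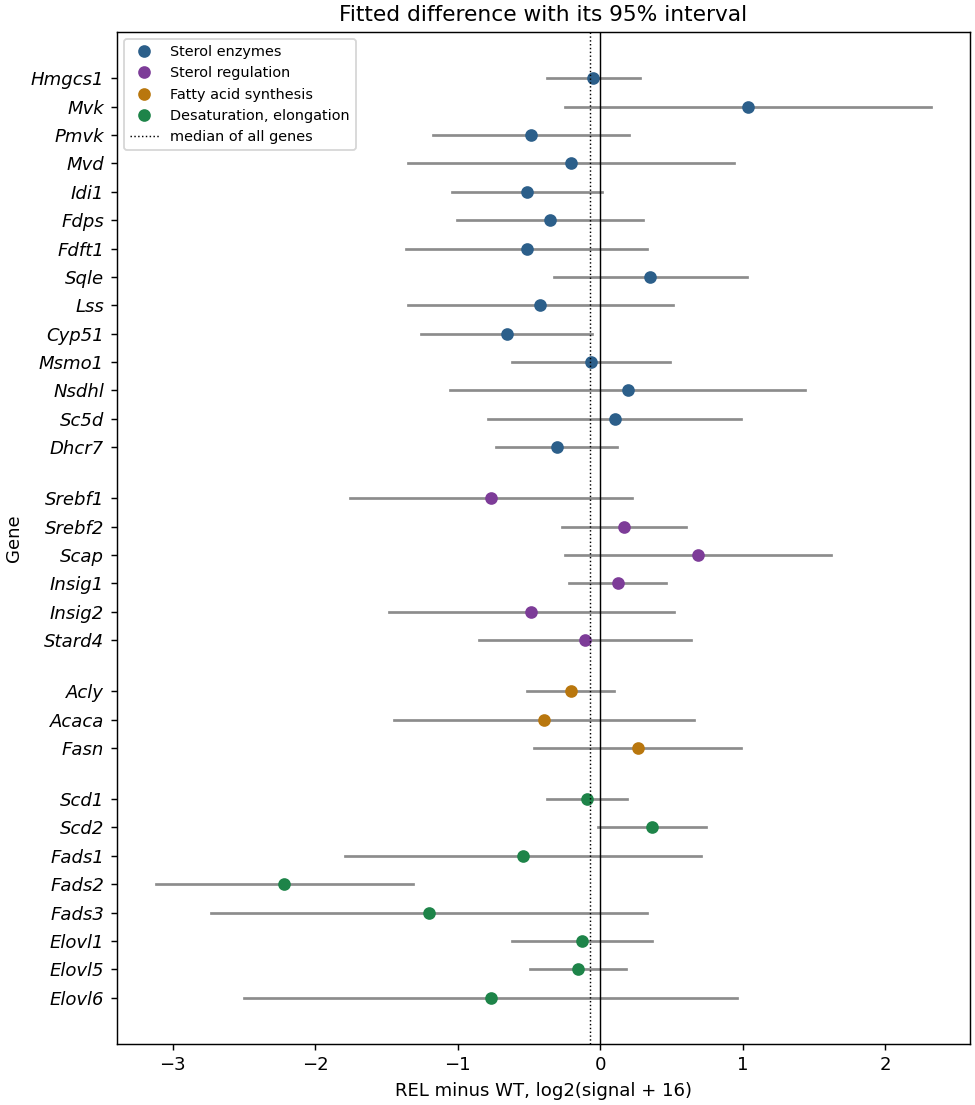
Fitted log2 difference, REL minus WT, of each measured gene (point) with its 95% interval (grey line) from limma, coloured by role, with the median of all genes as a dotted line. The intervals of Fads2 (−3.12 to −1.31) and Cyp51 (−1.26 to −0.06) are the ones that do not include 0.

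Leaving out each array in turn moved many of these values without turning their sign. The difference lay between −0.65 and −0.31 for Pmvk, −0.62 and −0.09 for Fdps, −0.90 and −0.13 for Fdft1, −0.71 and −0.13 for Lss, and −0.50 and −0.11 for Dhcr7. It lay between 0.14 and 0.53 for Sqle, −0.74 and −0.15 for Insig2, 0.45 and 0.90 for Scap, 0.09 and 0.25 for Srebf2, and −0.77 and −0.02 for Acaca. It lay between −0.88 and −0.53 for Cyp51, which varied less in proportion.

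The SCD enzymes place the double bond of oleate and palmitoleate. Scd1 had 10840 and 12453 in REL and 11493, 12893 and 12862 in WT, overlapping at −0.09. Scd2, a form abundant in mouse brain, had 6006 and 5059 in REL and 4202, 4231 and 4420 in WT. Both REL arrays of Scd2 were the highest, at 0.36 (SE 0.17, 95% interval −0.01 to 0.74, limma adjusted p = 0.623), and its 3 probe sets were all above 0, from 0.18 to 0.49.

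Of the elongases, Elovl1, which makes very long saturated chains, had 2333 and 2229 in REL and 2323, 2353 and 2836 in WT. Elovl5, which lengthens polyunsaturated chains, had 5317 and 5830 in REL and 6288, 5964 and 6351 in WT. Both REL arrays of Elovl5 were lowest, at −0.15 (SE 0.15, limma adjusted p = 0.846), which was 0.01 with median centring. A second Elovl5 probe set had 4857 and 4548 in REL and 5034, 4873 and 4440 in WT, overlapping at −0.02. Elovl6, which lengthens palmitate to stearate, had 356.9 and 48.3 in REL and 157.8, 272.6 and 349.7 in WT. The REL arrays of Elovl6 were the highest and the lowest of the 5, its difference was −0.77 with both and 0.50 without REL replicate 2, and its other probe sets were at 0.29 and 1.36. Of the 8 desaturase and elongase genes 7 were below 0 (87.5%, beside 56.8% of all genes), Scd2 being the one above. With median centring 4 of these genes were below and 4 above (50.0%, beside 40.6% of all genes). Their median was −0.35, and relative to all genes −0.28 with and without centring. That relative value was −0.03 without REL replicate 1 and −0.12 without REL replicate 2.

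**Figure D3:**
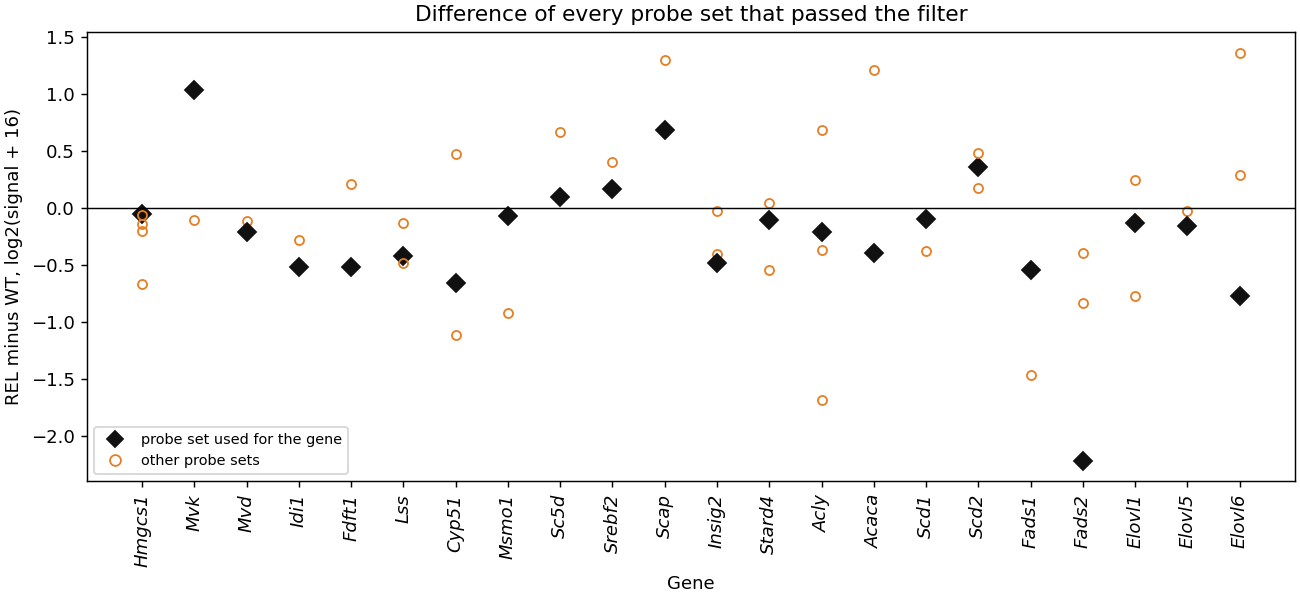
Difference of each probe set that passed the filter (REL minus WT, log2(signal + 16)) for the 22 genes with more than 1, with the brightest probe set as a black diamond and the others as open circles. In 14 of the 22 genes all probe sets lie on one side of 0, among them Fads2, Idi1 and Scd2, and in 8, among them Cyp51 and Elovl6, they lie on both.

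The groups of genes were also set side by side array by array, as the median deviation of their members from the WT mean. The sterol enzymes stood at −0.26 and −0.13 in REL replicates 1 and 2 and at 0.00, −0.11 and 0.12 in WT replicates 1 to 3, so that REL replicate 2 lay just below the lowest WT array. The desaturases and elongases stood at −0.15 and −0.12 in REL and −0.06, −0.02 and 0.08 in WT. The regulators stood at −0.12 and 0.12 in REL and within 0.01 of 0 in WT, one REL array on each side. Fatty acid synthesis stood at −0.21 and −0.02 in REL and −0.09, −0.08 and 0.14 in WT, and REL replicate 2 lay inside the WT range. The median of all genes was itself at −0.03 and −0.09 in REL and −0.05, 0.01 and 0.06 in WT. Relative to it the sterol enzymes were at −0.23 and −0.04 in REL and 0.05, −0.12 and 0.06 in WT, and the desaturases and elongases at −0.12 and −0.03 in REL and −0.01, −0.02 and 0.02 in WT. The germinal centre B cell markers stood at −0.22 and 0.00 in REL and −0.19, 0.17 and 0.04 in WT. Macrophage markers stood at 3.24 and 2.36 in REL and 0.08, −0.09 and −0.20 in WT. For 6 of these 14 markers the filter fixed the direction, so this median is partly set by the filter.

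**Figure D4:**
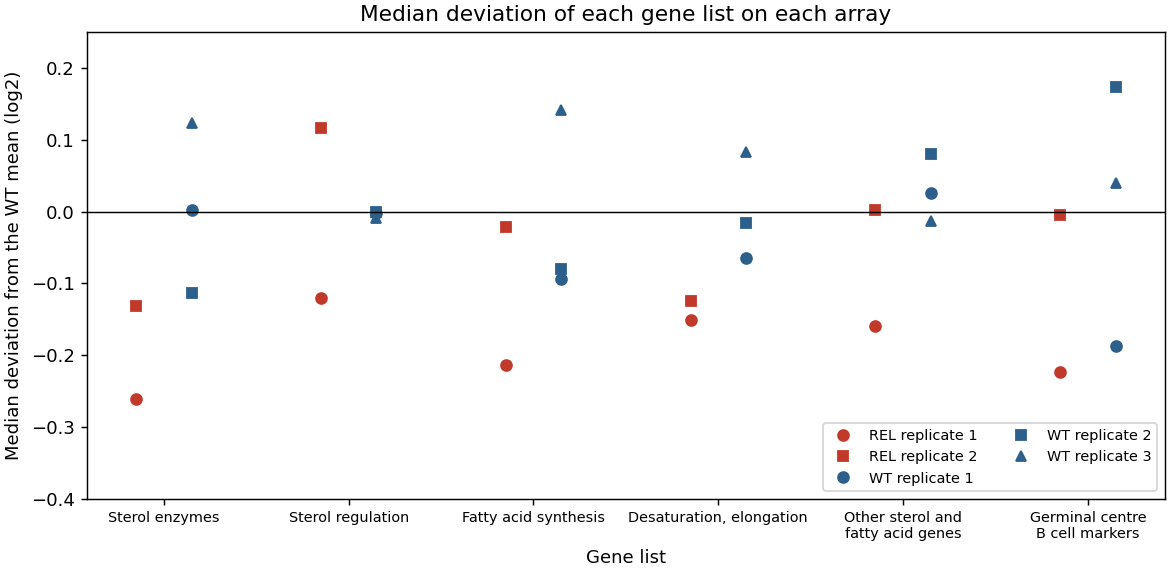
Median log2 deviation from the WT mean of each gene group on each array (REL in red, left of WT in blue). REL replicate 1 is the lowest array in every group shown, while REL replicate 2 is near or within the WT arrays except for the desaturases and elongases (−0.12, lowest WT array −0.06) and the regulators (0.12).

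A second list of 32 genes of the same pathways, none of them among the members, gave 21 measured genes for comparison. None passed the threshold in limma. At an unadjusted p under 0.05 there were 2 higher and 0 lower, where 3.24% of all genes were higher and 4.99% lower. Below 0 were 13 of the 21, which is 61.9%, beside 56.8% of all genes. The median was −0.16, beside −0.07 for all genes. Hsd17b7, a reductase late in cholesterol synthesis, had 2202 and 1618 in REL and 1114, 1062 and 851.3 in WT, at 0.90 (SE 0.30, limma adjusted p = 0.443). Lpin1, a phosphatidate phosphatase, had 291.7 and 322.7 in REL and 88.67, 2.522 and 61.65 in WT, at 2.60 (SE 0.77, limma adjusted p = 0.412). In both, the REL arrays were the highest. Ebp, a sterol isomerase, had the next smallest p, with 1289 and 2352 in REL and 1178, 1179 and 897.1 in WT, at 0.69 (SE 0.33, limma adjusted p = 0.644). Hacd2, a dehydratase of fatty acid elongation, followed with 575.7 and 530.7 in REL and 1091, 1544 and 589.1 in WT, at −0.84 (SE 0.44, limma adjusted p = 0.678). Both REL arrays were the highest for Ebp and the lowest for Hacd2. Of the 21 genes 6 had both REL arrays lowest and 3 had both highest. These are 28.6% and 14.3% of the list, against 14.3% and 9.53% of all genes.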

How the data were processed

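Gene expression in sorted germinal centre B cells was measured on single-colour Affymetrix arrays after RNA amplification, per the labels' protocols. The authors deposited linear signal intensities for 45101 probe sets on each array. The submitters' processing notes name MAS5, and its version and settings are not given here by any source. No detection calls were used. MAS5 summarises each array alone. Median signals were 48.1 and 30.1 in REL and 40.7, 41.1 and 54.6 in WT.

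Gene names came from the annotation table of the array, and the 34945 probe sets with 1 symbol were used, without control probe sets. Signals were transformed as log2(signal + 16), which understates changes of dim genes. The lowest 40% of probe sets by mean (below a signal of 23.1) were dropped and the brightest probe set of each gene kept, giving 12082 genes. The groups were compared by limma 3.58.1 under R 4.3.3 (group as the only term, eBayes fitted with its trend option, 3 residual and 6.84 prior degrees of freedom), two-sided with Benjamini-Hochberg adjustment over all genes at 0.05. Intervals are 95% and come from that fit. The number of arrays limits the precision. The code was tested on simulated data. Tables came from pandas 2.3.3 and numpy 2.4.6 under Python 3.11.15, and plots from matplotlib 3.10.9.

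Members, lists and tests were chosen with earlier results of these data known, so no list was tested and lists are described by counts and medians. Every measured member is given on every array. Of the second list the genes with an unadjusted p under 0.05 and, up to 4, those with the next smallest p were named, with Vcam1, C1qb, Csf1r, Cd79a and Bcl6 as defining markers and Rel as the targeted gene. Pax5, Rgs13, Adgre1, Cd68, Cd2, Cd8a, Cd247 and the plasma cell and naive B cell genes were named after values were seen. So were Rab3il1 and Fen1, for their position. The 3 motifs were likewise chosen after values were seen. The alternatives were other pseudocounts, filters, normalizations, probe set rules and variance models, the replicate number as a block, and each array left out. Their effect is given in the closing section.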

Additional observations from a re-analysis of the deposited data

How the results depend on the processing

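Under 19 alternatives 0 members were called in limma, and the lowest adjusted p of any member was 0.101, that of Fads2 without REL replicate 2. Of the 31 members 17 kept their direction under all 19, Fads2, Cyp51, Idi1, Mvk, Srebf1, Srebf2, Scap and Scd2 among them, and Fads3 under the 18 that gave it a value. Of 588 member values 40 lay in the other direction, and the cause was not tested. With each array left out in turn, with the filter and probe sets remade or kept, the ranges were −0.19 to 0.093 for Hmgcs1, −0.63 to 0.22 for Mvd, −0.15 to 0.014 for Msmo1 (0.0083 without WT replicate 1), −0.63 to 1.02 for Nsdhl, −0.45 to 0.65 for Sc5d, −0.043 to 0.29 for Insig1, −0.37 to 0.81 for Stard4 (0.036 without WT replicate 1, 0.016 without WT replicate 3), −0.19 to 0.0064 for Scd1, −1.11 to 0.023 for Fads1 and −2.04 to 0.50 for Elovl6. Median centring moved the median of all genes to 0.10, against −0.07, and with it Hmgcs1 (0.12), Msmo1 (0.10), Stard4 (0.064), Scd1 (0.076), Elovl1 (0.041) and Elovl5 (0.015) above 0, and quantile normalization Hmgcs1 (0.039) and Scd1 (0.0086). The mean of probe sets put Acaca at 0.41 and Elovl6 at 0.30.

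The median of the sterol enzymes was −0.086 with median centring (−0.19 relative to all genes, as without it) and −0.30 to −0.13 with an array left out (−0.26 without REL replicate 2). That of the regulators was 0.18 with centring and −0.12 to 0.12 with an array left out (−0.021 without WT replicate 2). That of fatty acid synthesis was −0.038 with centring, 0.26 with the mean of probe sets and −0.29 to −0.021 with an array left out. That of desaturation and elongation was −0.18 with centring, −0.15 with the lowest 60% of probe sets left out (which drops Fads3), −0.21 with the mean of probe sets and −0.39 to −0.12 with an array left out. That of the second list was 0.013 with centring, −0.25 with the mean of probe sets and −0.16 to 0.0026 with an array left out. Without REL replicate 1 the sterol enzymes were at −0.04 and the desaturases and elongases at −0.03 relative to all genes. Without REL replicate 2 these values were −0.23 and −0.12.

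Over all genes 1 was called, against 0 with a pseudocount of 1, with no filter, with a 60% filter, with the mean of probe sets and without the mean-variance trend, 2 with a pseudocount of 64 or quantile normalization, 3 with median centring, and 0 to 8 with an array left out, 8 without REL replicate 1 and 0 without any 1 of the WT arrays. The replicate numbers come with no stated pairing. Deviations of same-numbered arrays correlated at −0.04 and −0.02. With 2 REL arrays the REL deviations are mirror images of each other, so these values cannot show whether same-numbered samples share anything more. With the number as a replicate block, on 4 arrays with 1 residual degree of freedom, 17 genes and 0 members were called and Stard4 was at 0.016. Fads2 was then at −2.16 (adjusted p = 0.211). Without detection calls, dim signals such as that of Fads3 in REL replicate 2 have no measured floor.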

Other observations

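Genes of cholesterol efflux and its sensing by LXR factors showed no common direction. Of 8 listed genes 6 were measured, none was called in limma, 0 had an unadjusted p under 0.05, and in all 6 the arrays of the groups overlapped. The genes with the smallest p were Abcg1, a sterol exporter, with signals of 1664 and 798.9 in REL and 1299, 641.2 and 653.4 in WT, at 0.49 (SE 0.44), Apoe, a lipid carrier made in quantity by macrophages, at 0.41 (SE 0.38), Abca1, another sterol exporter, at −0.66 (SE 0.62), and Nr1h3, the gene for LXR alpha, at −0.48 (SE 0.54). Apoe had 803.3 and 1397 in REL and 997.7, 659.6 and 764.4 in WT, and the groups overlapped.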
